A study of Mus musculus with 3 samples.

Results

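SR protein genes encode serine- and arginine-rich splicing factors, and contacts of the splicing factor RBFOX2 with the RNA of 10 of them were examined in mouse hepatocytes: Srsf1, Srsf2, Srsf3, Srsf4, Srsf5, Srsf6, Srsf7, Srsf9, Srsf10 and Srsf11. A cluster of crosslink positions was assigned to a gene when it lay on the gene's strand and its midpoint fell inside the gene span of GENCODE M21 on GRCm38. By this rule 107 of the 87021 clusters in the list, and 5244 of its 2850863 counts, belonged to SR protein genes, and 8 of the 10 genes held at least 1 cluster. Over the whole annotation 10738 genes held a cluster, counting a cluster for every gene whose span contained it.

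The data come from enhanced individual-nucleotide-resolution crosslinking and immunoprecipitation (eiCLIP), in which UV light bonds a protein to the RNA it touches and the start of each recovered cDNA marks the bonded position. Primary hepatocytes, which make up most of the liver, were taken from control-diet C57BL6/J mice, irradiated at 150 mJ/cm2 after a night in culture, and precipitated with an antibody to RBFOX2 (sold as RBM9). The 3 libraries form 1 group, and the labels give 3 livers and 3 pellets for each library. The study's methods give another number of mice per culture, and which of them holds is not known. The authors merged the libraries before they called clusters, so that the list carries no spread between libraries, no depth per library and no comparison between conditions.

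A count here is a number of cDNA starts in a cluster, with 10 as the lowest in the list and 17 as the median. No test was possible without replicates. Values are therefore set side by side, with exact Poisson 95% intervals for counts and Wilson 95% intervals for shares, which cover counting error only. Neither an RNA level nor an input library entered these values, so that a gene with more RNA, or more of its unspliced RNA, and a gene bound more often cannot be told apart. The hepatocyte identity of the material was checked on 8 hepatocyte markers, which all held clusters (139 to 8110 counts per gene). Of 19 markers of Kupffer, endothelial, stellate, bile duct and blood cells 5 held clusters, at 215 counts in sum, and the bile duct markers were all at 0. Of the 215 counts, 150 were in the stellate marker Reln, which was above the lowest hepatocyte marker.

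As background, SR proteins bind exonic sequences through an RNA recognition motif and recruit the splicing machinery through their serine- and arginine-rich tail. Many of their genes limit their own output by alternative splicing: inclusion of a poison exon, which brings an early stop codon, or retention of an intron diverts the transcript to nonsense-mediated decay (NMD) or holds it in the nucleus. RBFOX proteins recognize GCAUG in RNA, written GCATG below, and in general favour an exon when bound in the intron downstream of it and repress one when bound upstream.

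The sequences that the values below turn on are shown first. The lines give stretches of RNA-sense sequence from the annotated transcripts, GRCm38, with the GCATG core in capitals, for every site within 50 nt of a cluster in the introns that hold the stop-carrying exon of Srsf6 and the poison exons of Srsf3 and Srsf11, and in intron 2 of Srsf10.
Srsf6, far upstream in the same intron, chr2:162932307-162932331, + strand: ctacctccacGCATGcccgggtagc
Srsf6, inside the highest cluster, chr2:162932690-162932714, + strand: aatagttgggGCATGttactgggag
Srsf6, between that cluster and the stop-carrying exon, chr2:162932754-162932778, + strand: tgaaattgttGCATGttgaattcca
Srsf6, at a cluster downstream of that exon, chr2:162933120-162933144, + strand: atgtagaaatGCATGtaatcagtta
Srsf6, before the last cluster of that intron, chr2:162933367-162933391, + strand: tcaaaaacatGCATGcctgtcattg
Srsf3, past the poison exon, chr17:29040091-29040115, + strand: gaacttatgtGCATGtgtgagatgc
Srsf3, inside the highest cluster, chr17:29040404-29040428, + strand: ttaaaggtttGCATGggttccaaat
Srsf11, in intron 3, chr3:158024699-158024723, - strand: tactcttgacGCATGaaaattaact
Srsf11, in intron 3, chr3:158025485-158025509, - strand: ataagttaagGCATGctattttggt
Srsf11, in intron 3, chr3:158026376-158026400, - strand: tcaaattaatGCATGatgcttatgt
Srsf10, in a non-coding exon, chr4:135858871-135858895, + strand: caaagagaaaGCATGaaagaacttt

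Other prominent clusters held no GCATG, and are shown to let the contexts be compared. Here the capitals mark the bases inside the cluster, and where the cluster was wider than 30 bases its centre is given.
Srsf6, second highest cluster, chr2:162932572-162932601, + strand: ctAAGTCTTAGGAGCTGGGAGGCTTGATtg
Srsf6, cluster at the end of the stop-carrying exon, chr2:162932960-162932989, + strand: ccattaGACGCAGGGTGATGGTGaggattc
Srsf5, highest cluster, exon 2, chr12:80946656-80946685, + strand: AAAGATTCTTCAAGGGTTACGGACGGATCC
Srsf5, highest cluster of a retained intron, chr12:80948378-80948407, + strand: gcttcCGAATAAGAGGTCCTGGTCgaaaga
Srsf11, highest cluster, intron 3, chr3:158025939-158025968, - strand: CTGCATTTTCTCTCTTTTTACGTTTTAGGC
Srsf2, highest cluster, 3′ UTR, chr11:116850349-116850378, - strand: TCTCTTATGTATTTTTGTGCACTAGGCGCA

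The SR protein genes differed widely in how many clusters they carried. Srsf6 led with 27 clusters and 2976 counts (95% interval 2870 to 3085), which was 56.8% of all counts in the 10 genes. Srsf5 followed with 815 counts in 18 clusters (760.0 to 872.9) and Srsf11 with 616 counts in 25 clusters (568.3 to 666.6). Together these 3 genes held 84.0% of the counts. Srsf3 had 330 counts in 12 clusters (295.4 to 367.6), Srsf2 had 203 in 9 (176.0 to 232.9) and Srsf10 had 181 in 9 (155.6 to 209.4). Srsf4 had 86 counts in 5 clusters (68.8 to 106.2) and Srsf7 had 37 in 2 (26.1 to 51.0). In this order only the neighbours Srsf2 and Srsf10 had overlapping intervals. Srsf1 and Srsf9 had no cluster in the list, which keeps only clusters of 10 counts or more.

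Gene length changed this order. Per kb of gene span the summed count was 532.0 in Srsf6, 162.9 in Srsf5, 63.6 in Srsf2, 30.7 in Srsf3, 23.5 in Srsf11 and 12.8 in Srsf10. It was 5.12 in Srsf7 and 3.06 in Srsf4, the longest of the genes at 28.1 kb. Srsf2, at 3.19 kb the shortest, thus moved ahead of Srsf3 and Srsf11 on this scale.

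**Figure D1:**
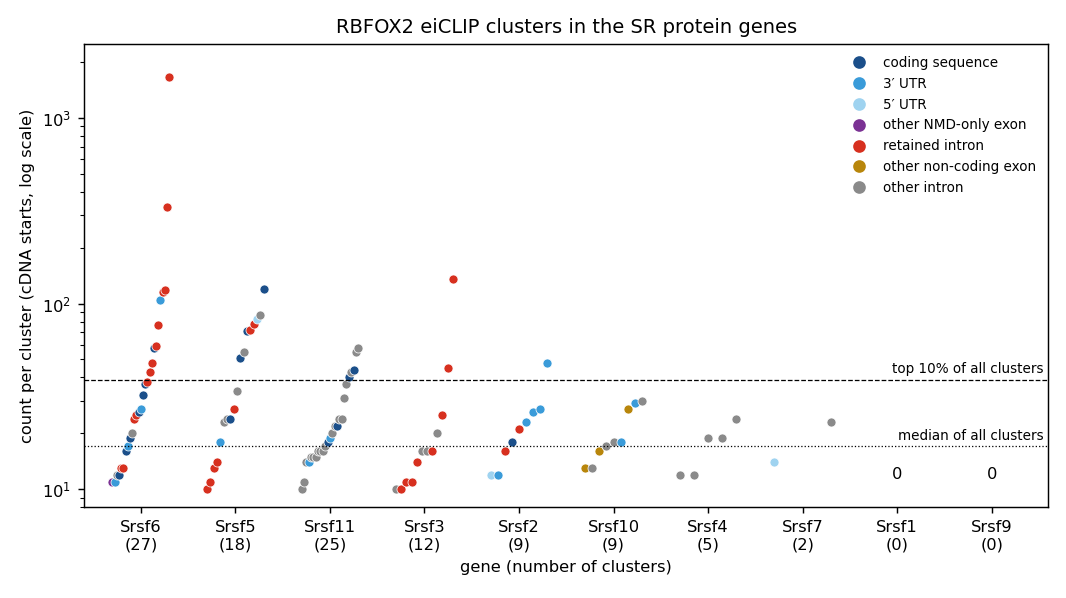
Each point is 1 cluster of an SR protein gene, with its count (cDNA starts, log axis) on the vertical axis, the genes along the horizontal axis in order of summed count, and colour for its location; points are spread sideways by count only for legibility. The 1669-count cluster of Srsf6 stands far above the rest, and Srsf1 and Srsf9 have no point.

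Single clusters were mostly small. The median count of the 107 clusters was 21, with quartiles at 15 and 37.5 and extremes of 10 and 1669. Their width had a median of 13 nt and extremes of 1 and 194 nt, beside a median of 18 nt in the list. Of these clusters 69 were at or above the median count of the list, where 51.7% of all clusters were, and 26 were in the top 10% of counts (39 or more), where 10.2% of all clusters were. Srsf6 held 10 of those 26, Srsf5 held 8, Srsf11 held 5, Srsf3 held 2 and Srsf2 held 1. Srsf10, Srsf4 and Srsf7 had none, their highest clusters having 30, 24 and 23 counts.

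Srsf6 (ENSMUSG00000016921.14, chr2:162931528-162937121, + strand) encodes an SR protein that activates and represses exons, and its RBFOX2 signal was concentrated in 1 intron. Between exons 2 and 3 of the reference transcript Srsf6-203 the annotation places a cassette exon of 165 nt, chr2:162932815-162932979, which is used by Srsf6-202 and, in a longer form of 268 nt, by the NMD transcript Srsf6-201. The reading frame of Srsf6-202 ends in this exon after 149 coding nt, at a TAG in bases 162932964 to 162932966, so that it carries an early stop as a poison exon does. It was treated as a stop-carrying exon by a rule added after the data had been seen, because the first rule for poison exons asked for NMD transcripts alone and left it out.

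Of the 2976 counts of Srsf6, 2410 (81.0%, interval 79.5 to 82.4%) lay in the 672 nt of intron just upstream of the stop-carrying exon, in 9 clusters. That stretch alone held 46.0% of the counts of all SR protein genes. The exon itself held 2 clusters with 117 counts, and the 446 nt of intron downstream held 5 clusters with 174 counts. On the per-length scale this was 3586 counts per kb upstream, 709.1 in the exon and 390.1 downstream, against 38.0 per kb in the last exon, which holds most of the 3′ UTR.

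The highest SR cluster, chr2:162932683-162932737, had 1669 counts (1590 to 1751) and ranked 92 among all clusters of the list. It was 55 nt wide, ended 77 nt before the stop-carrying exon, and contained one of the GCATG sites printed above, 110 nt before the exon. A further site lay 46 nt before the exon, between this cluster and one of 43 counts. The next highest cluster, chr2:162932574-162932599, had 330 counts (295.4 to 367.6) and no GCATG in its window. Further upstream, clusters of 119, 115 and 59 counts were also in the top 10% of the list.

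At the downstream edge of the stop-carrying exon a cluster of 105 counts, chr2:162932966-162932982, began on the last base of the stop codon and ran 3 nt past the end of the exon, so that it covered the 5′ splice site. In the intron beyond, a cluster of 77 counts overlapped a printed GCATG, and 1 of 48 counts, 17 nt from another, ended 6 nt before exon 3. In the constitutive exons the clusters were smaller, with 58 counts in exon 5, 37 and 26 in exon 4, 19 in exon 1, and 32, 27, 17, 16 and 11 in exon 6, which holds coding sequence and the 3′ UTR. Exons 2 and 3 and introns 3, 4 and 5 had none. Both sides of the stop-carrying exon were thus occupied, with the larger count upstream.

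**Figure D2:**
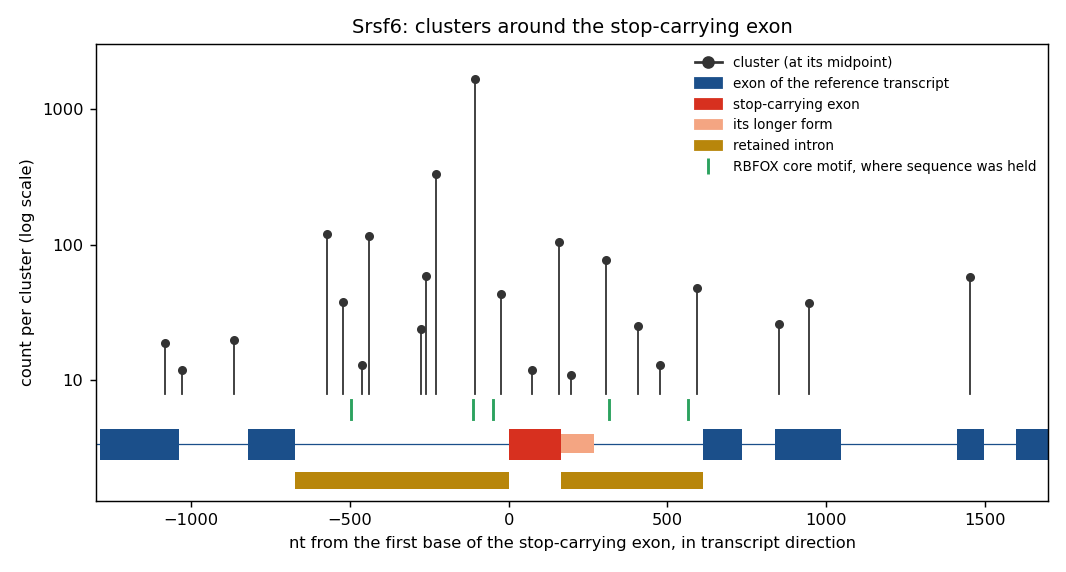
Clusters of Srsf6 between exon 1 and the start of exon 6, as count (log axis) against distance in nt from the first base of the stop-carrying exon. Blue boxes are exons of the reference transcript, the red box is the stop-carrying exon with its longer form in pale red, brown bars are retained introns and green ticks are RBFOX core motifs; the 1669-count cluster sits just left of the red box, at a green tick.

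By location, SR protein genes carried many clusters in introns that are annotated as retained. Each cluster was placed by its midpoint in the first of these classes that applied: coding sequence, 3′ UTR, 5′ UTR, poison exon, other exon sequence found only in NMD transcripts, retained intron (an intron of a protein-coding transcript covered whole by a retained-intron transcript), other non-coding exon (of transcripts that are neither NMD nor retained-intron transcripts) and other intron. Exons of retained-intron transcripts that cover no intron whole thus counted as other intron, with the exon of Srsf11-203 described below among them. Of the 107 clusters 30 were in retained introns (28.0%, 20.4 to 37.2%), 40 in other introns (37.4%, 28.8 to 46.8%), 16 in coding sequence (15.0%, 9.42 to 22.9%) and 14 in 3′ UTRs (13.1%, 7.96 to 20.8%). The remaining 7 were 3 in 5′ UTRs, 3 in other non-coding exons and 1 in an NMD-only exon.

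Beside this, 1.82% of the 73273 clusters in all protein-coding genes were in retained introns, 67.9% in other introns, 14.3% in coding sequence and 13.2% in 3′ UTRs. The coding and 3′ UTR shares of the SR protein genes were thus close to those of all genes. The intronic clusters were divided differently, as were the intron lengths given below. Without Srsf6 the retained-intron share was 21.3% (17 of 80, 13.7 to 31.4%). Weighted by count it was 59.2% with Srsf6 and 23.4% without it. The share also moved with the rule: it was 14.0% (8 of 57, 7.29 to 25.3%) when clusters within 200 nt were merged, where all protein-coding genes had 1.61%, and 42.1% when any part of a retained-intron transcript's exon outside protein-coding exons counted. After merging, the share without Srsf6 was 16.0% (8 of 50), so that all 8 lay outside Srsf6. A merged cluster was placed by its single midpoint, and those of Srsf6 fell in other classes.

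Since the lengths of these classes differ between genes, the same clusters were also set against the length of each class. In the 8 genes with a cluster there were 4.73 clusters per kb of retained intron, 2.07 per kb of coding sequence, 0.985 per kb of 3′ UTR and 0.601 per kb of other intron. In all protein-coding genes with a cluster the densities were 0.490, 0.554, 0.544 and 0.0719 per kb. SR protein genes were denser in every one of these classes. Within them the retained introns were denser than the coding sequence, also without Srsf6 (3.19 and 1.37 per kb), whereas over all protein-coding genes the 2 densities lay close together. Retained introns were denser than other introns in both sets, at 4.73 beside 0.601 and 0.490 beside 0.0719 per kb. Without Srsf6 it was 3.19 beside 0.577. The SR protein genes had 6.34 kb of retained and 66.6 kb of other intron, all protein-coding genes 2718 and 692431 kb. Retained introns were thus several times as dense as other introns in both sets. The shares of clusters given above take no account of these lengths. Alone they do not show a stronger preference for retained over other introns than in all protein-coding genes.

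**Figure D3:**
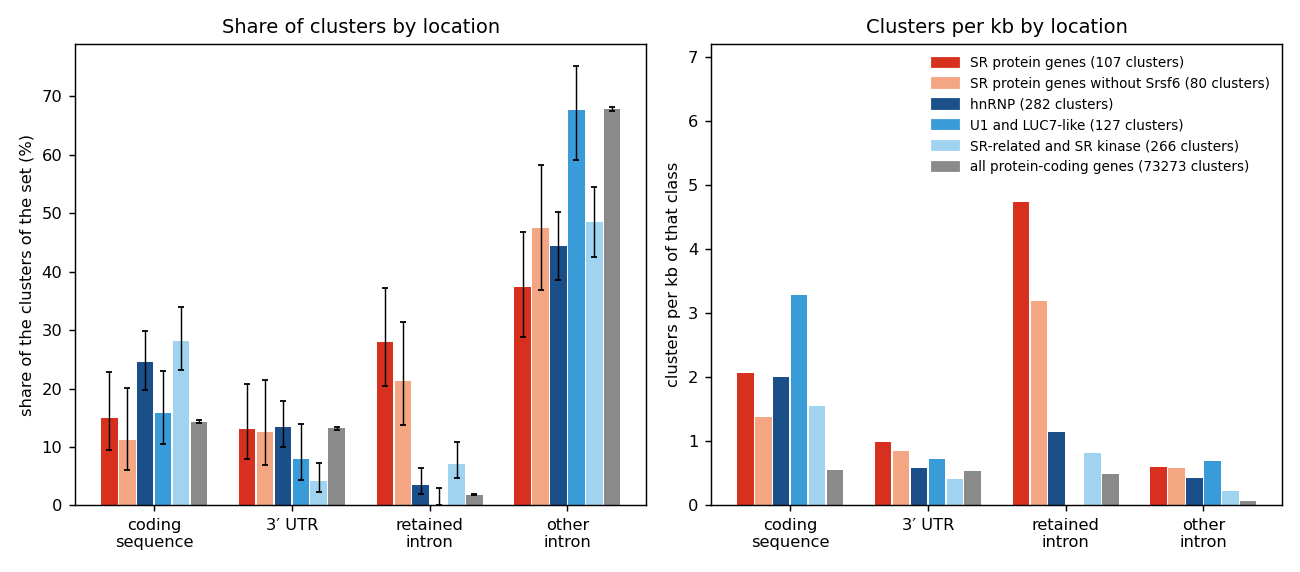
Left, the share of a gene set's clusters (%) in 4 locations, with Wilson 95% intervals; right, clusters per kb of the same locations, in genes with a cluster. The red bars of the SR protein genes stand at 28.0% and 4.73 per kb for retained introns, where the grey bars of all protein-coding genes stand at 1.82% and 0.490 per kb.

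The annotation gives 11 retained introns in 5 SR protein genes, and 7 of the 11 (63.6%, 35.4 to 84.8%) held a cluster, where 17.5% of such introns did over all protein-coding genes with a cluster. Outside Srsf6 it was 5 of 9. Introns of 1 gene share its RNA, and the interval takes no account of that. Those with a cluster were both parts of the Srsf6 intron around its stop-carrying exon, the 2150 nt intron 3 of Srsf3 with 8 clusters and 268 counts, introns of 1229 and 112 nt in Srsf5 with 6 and 1 clusters, and the 2 parts of an Srsf2 intron with 1 cluster each. The 4 without a cluster were 1 of Srsf3, 2 of Srsf5 and the 874 nt intron of Srsf7.

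Few exons of the SR protein genes met the rule for poison exons, and small clusters lay beside some of them. A poison exon was defined as an internal exon of an NMD transcript that overlaps no exon of a protein-coding transcript, which gave 8 exons in 5 genes: 1 each in Srsf3, Srsf7 and Srsf9, 2 in Srsf11 and 3 in Srsf4. Of these, 7 were in genes with a cluster, the exon of Srsf9 being the other. None of the 7 had the midpoint of a cluster inside it (0%, up to 35.4%), where 6.21% of such exons did over all protein-coding genes with a cluster, so that 0 of 7 is near the background. By any overlap, 1 cluster touched 1 of them. In the 300 nt beside them, 3 of the 7 had a cluster (42.9%, 15.8 to 75.0%), where 13.8% did over all protein-coding genes with a cluster. These were the exon of Srsf3 and both exons of Srsf11, with 11 clusters and 151 counts in all, each of 10 to 17 counts. Both exons of Srsf11 lie in 1 intron and the 3 of Srsf4 in another, and the interval takes no account of that. Other introns of the SR protein genes also had more clusters per kb than those of all protein-coding genes (0.601 beside 0.0719). With stop-carrying cassette exons in place of NMD poison exons, Srsf6 joined the list. It had 3 clusters inside the longer form of its exon and 8 clusters of 2240 counts within 300 nt of it. Of the Srsf4 exons only chr4:131884276-131884482 stayed, the others holding no end of an annotated reading frame. This rule gave 7 exons, that of Srsf9 included, of which 1 had a cluster inside and 4 had one beside. Over all protein-coding genes with a cluster 6.77% of such exons held a cluster and 14.1% had one beside them.

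Srsf3 (ENSMUSG00000071172.13, chr17:29032628-29043373, + strand) encodes the smallest SR protein, which also takes part in mRNA export. Its poison exon of 456 nt, chr17:29039454-29039909, lies in intron 3, and that intron held 8 of its 12 clusters and 268 of its 330 counts (81.2%). The side of the exon differed: 2 clusters with 26 counts lay upstream of it and 6 clusters with 242 counts downstream. Clusters of 11, 14 and 11 counts lay 69, 109 and 138 nt past the exon. The highest cluster, chr17:29040380-29040486, with 136 counts (114.1 to 160.9), contained the printed GCATG, and a cluster of 45 counts preceded it. The other 4 clusters, with 62 counts, were in intron 1, and no cluster lay in an exon of the reference transcript. In Srsf6 most counts of the intron were upstream of the stop-carrying exon, in Srsf3 downstream of the poison exon. Of the 242 downstream counts of Srsf3, however, only 36 lay within 300 nt of the poison exon. The midpoint of the 136-count cluster lay 342 nt before the next exon of the reference transcript.

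Srsf11 (ENSMUSG00000055436.18, chr3:158010473-158036639, - strand) encodes an SR-related protein that contacts factors at the 3′ splice site. Its intron 3, of 3774 nt, contains both of its poison exons and held 17 of its 25 clusters and 423 of its 616 counts (68.7%). The clusters were spread along the intron. The highest were far upstream of the poison exons, with 58 counts (44.0 to 75.0) at chr3:158025925-158025982, 55 counts at chr3:158025304-158025308 and 43 counts at chr3:158025469, and the last lay 26 nt from a printed GCATG.

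Around the upstream poison exon of Srsf11, chr3:158024123-158024231, 6 clusters of 15 to 17 counts lay within 300 nt, 4 before the exon and 2 after it. The nearest, of 15 counts, covered the last 3 nt of the exon and the first 3 nt of the intron, so that it sat on the 5′ splice site as the 105-count cluster of Srsf6 did. The downstream poison exon, chr3:158023243-158023359, had 1 cluster of 10 counts before it and 1 of 11 after it. A further exon of intron 3, 64 nt long and used by the transcript Srsf11-203, held a cluster of 16 counts over another printed GCATG. In the coding exons of Srsf11 there were 4 clusters, of which those in exons 10 and 11 had 40 and 44 counts.

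**Figure D4:**
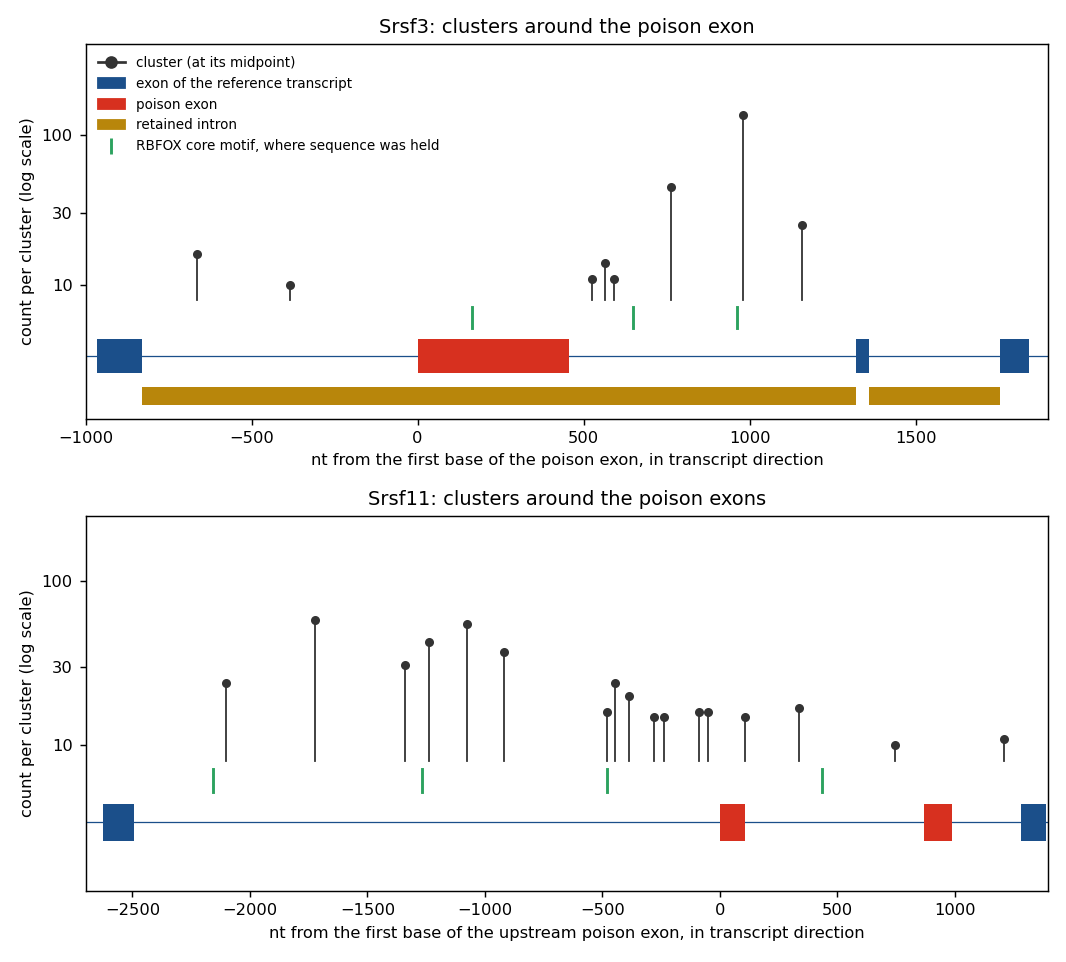
Clusters in intron 3 of Srsf3 (top) and of Srsf11 (bottom), as count (log axis) against distance in nt from the first base of the poison exon, for Srsf11 the upstream one; blue boxes are exons of the reference transcript, red boxes poison exons, brown bars retained introns and green ticks RBFOX core motifs. In Srsf3 the 136- and 45-count clusters lie right of the red box, and in Srsf11 the clusters of 43 to 58 counts lie left of both red boxes.

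Srsf5 (ENSMUSG00000021134.17, chr12:80945504-80950507, + strand) encodes an SR protein whose RNA is induced by growth signals and insulin, and it has no poison exon under either rule. Its 18 clusters covered the gene from end to end, with no single dominant one: the highest, of 120 counts (99.5 to 143.5) in coding exon 2, was 14.7% of the gene's counts. Introns held 448 of the 815 counts, of which 225 were in retained introns and 223 in others, coding sequence held 266, the 5′ UTR 83 and the 3′ UTR 18. In intron 5, which is annotated as retained, clusters of 78 and 72 counts stood above 4 clusters of 10 to 14 counts. Clusters of 87 counts in intron 6, 83 in the 5′ UTR, 71 in exon 3, 55 in intron 1 and 51 in exon 7 were the others in the top 10% of the list. None of its 11 cluster windows with sequence held GCATG.

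**Figure D5:**
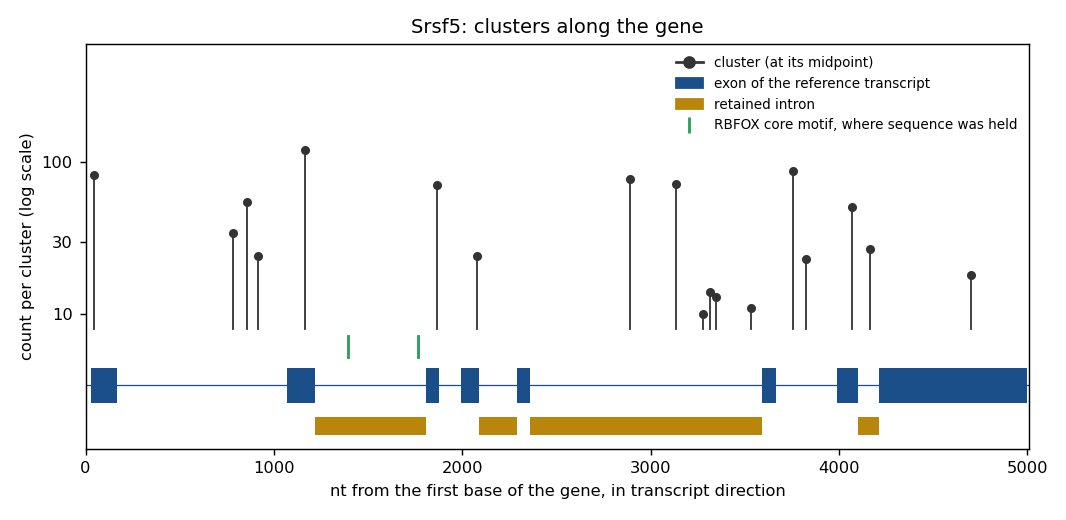
Clusters along Srsf5, as count (log axis) against distance in nt from the first base of the gene, with exons of the reference transcript in blue, retained introns in brown and RBFOX core motifs as green ticks. Clusters lie in exons and introns alike between 10 and 120 counts, and neither of the 2 green ticks falls on a cluster.

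Srsf2 (ENSMUSG00000034120.18, chr11:116849901-116853094, - strand), a factor of exon recognition and of nuclear speckles, had most of its signal at the 3′ end. Its 3′ UTR held 5 of its 9 clusters and 136 of its 203 counts, and the highest, chr11:116850336-116850391, had 48 counts (35.4 to 63.6). The coding cluster of 18 counts in exon 1 lay 15 nt from the only GCATG in the sequence of this gene. Clusters of 16 and 21 counts were in retained-intron sequence of its last intron.

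Srsf10 (ENSMUSG00000028676.17, chr4:135855747-135869908, + strand), which encodes a splicing repressor that is switched by dephosphorylation, held 6 of its 9 clusters in intron 2, with 121 of its 181 counts. Of these, 2 clusters of 27 and 16 counts lay in a 360 nt exon of a non-coding transcript, chr4:135858842-135859201, on both sides of the printed GCATG. The highest cluster of Srsf10, in the same intron, had 30 counts (20.2 to 42.8), and 2 clusters in its 3′ UTR had 29 and 18.

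Srsf4 (ENSMUSG00000028911.16, chr4:131873617-131901706, + strand), a large SR protein with a long arginine- and serine-rich tail, had its 5 clusters of 12 to 24 counts in intron 1. That intron contains the 3 exons that met the NMD rule for poison exons, but no cluster lay within 300 nt of them. A non-coding gene on the same strand, A930004J17Rik, overlaps this intron, and 3 of the 5 clusters, with 50 of the 86 counts, lay in its span as well. Srsf7 (ENSMUSG00000024097.11, chr17:80200080-80207307, - strand), an SR protein with a zinc knuckle, had a cluster of 14 counts in the 5′ UTR and 1 of 23 in intron 5, and none in the 874 nt intron around its poison exon.

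Srsf1 (ENSMUSG00000018379.17, chr11:88047373-88053755, + strand), the founding member of the family, and Srsf9 (ENSMUSG00000029538.14, chr5:115327177-115333080, + strand), its closest relative, were those with no cluster. The sequence held for Srsf1, 89.5% of its span, contained 5 GCATG sites, so that sites were present without a cluster. That held for Srsf9, 28.0% of its span, contained none. Reads were kept by the authors only if they mapped to 1 place, and RNA shared with pseudogenes could be lost for that reason. Of the 30-base words in their transcripts, 0% were shared with transcripts of other loci in Srsf1 and Srsf9, 14.2% in Srsf3, 14.5% in Srsf5 and 12.1% in Srsf10, and 0 to 2.57% in the rest.

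GCATG was found at a minority of the SR clusters that could be searched. A window of the cluster and 50 nt on each side was searched on the transcript strand where annotated transcripts covered it whole. This was so for 68 of the 107 clusters, but for only 13 of the 40 in other introns. Of the 68 windows 12 held GCATG (17.6%, 10.4 to 28.4%), where 20.01% of windows did over all protein-coding genes. Over every window of the same length in the same gene and class the share was 14.2% for the SR protein genes, inside that interval, and 13.6% for all protein-coding genes. The 17.6% and 20.01% come from unlike mixes of classes, with 14 of 68 and 9478 of 17532 windows in 3′ UTRs. At this number of windows the difference between SR clusters and all same-length windows was within counting error. Those windows include the cluster windows themselves, which narrows any difference. In Srsf6 42.7% of the sequence lay within 50 nt of a cluster. The comparison therefore cannot decide whether SR clusters held GCATG more often than sequence away from clusters. Srsf6 gave 6 of the 12 cluster windows with GCATG, Srsf11 gave 3, and Srsf2, Srsf3 and Srsf10 gave 1 each. Without Srsf6 the share was 13.0% (6 of 46, 6.12 to 25.7%) against 7.13% of all same-length windows.

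Among the strongest clusters the share with GCATG was higher, 31.6% (6 of 19, 15.4 to 54.0%) in the top 10% of counts and 12.2% (6 of 49, 5.73 to 24.2%) below it. Over all same-length windows, cluster windows included, the shares were 24.6% and 10.2%. The intervals of the cluster shares overlapped. Over all protein-coding genes the same shares were 32.2% and 17.7%.

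Seen from the sites, the sequence held for the 8 genes with a cluster contained 34 GCATG, of which 15 (44.1%, 28.9 to 60.5%) lay within 50 nt of a cluster, and 20.3% of that sequence lay as near. Without Srsf6 it was 10 of 28 (35.7%, 20.7 to 54.2%) against 17.4% of the sequence. The genes differed: in Srsf6 5 of 6 sites and in Srsf11 6 of 8 lay near a cluster, but 2 of 8 in Srsf3 and none of 5 in Srsf7 or 2 in Srsf5. Of the 34 sites 4 overlapped a cluster, those in the 1669- and 77-count clusters of Srsf6, the 136-count cluster of Srsf3 and the 16-count cluster of Srsf11. Since sites of 1 gene share its sequence and its RNA, they are not independent of each other.

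Among other genes of RNA processing the SR protein genes were not alone in carrying many clusters. At least 1 cluster was found in 8 of 10 SR protein genes, 23 of 23 hnRNP genes, 5 of 6 genes of the U1 snRNP and LUC7-like proteins, which recognize 5′ splice sites, and 19 of 20 genes of SR-related proteins and SR kinases, where 41.8% of all protein-coding genes had one. The median summed count of the genes with a cluster was 266.5 for SR protein genes, 235 for hnRNP genes, 276 for U1 and LUC7-like genes and 184 for the last list, against 63 over protein-coding genes. Of the 8 SR protein genes 7 were above that value of 63, and all 8 were above the protein-coding median of 0.122 clusters per kb.

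In each of these lists a few genes led. Among hnRNP genes, whose products often oppose SR proteins, Hnrnph1 had 1116 counts, Hnrnpa2b1 608 and Pcbp2 529. Snrnp70, which encodes the core protein of U1, had 2389 counts, Luc7l2 1172 and Luc7l3 276. Son, a scaffold of nuclear speckles, had 2630 counts, Srrm2 1215 and Srek1 1071. Srsf6, at rank 83 of all genes with a cluster, was above all of these, with Son at rank 106 and Snrnp70 at 116. It differed from them in the share of its highest cluster, 56.1% of its counts against 24.9% in Son and 17.7% in Snrnp70.

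Retained introns held 3.55% of the clusters of hnRNP genes (10 of 282, 1.94 to 6.40%), 7.14% of those of SR-related and kinase genes (19 of 266, 4.62 to 10.9%) and none of 127 in U1 and LUC7-like genes, which have only 0.359 kb of retained intron. The interval of the SR protein genes was 20.4 to 37.2%, and 13.7 to 31.4% without Srsf6. With clusters within 200 nt merged, the SR interval of 7.29 to 25.3% overlapped that of SR-related and kinase genes, 7.14% (15 of 210, 4.38 to 11.4%), and lay above that of hnRNP genes, 3.20% (7 of 219, 1.56 to 6.45%). The merged SR clusters in retained introns, 8 in number, all lay outside Srsf6. Per kb of retained intron there were 4.73 clusters in SR protein genes, 1.15 in hnRNP genes and 0.825 in SR-related and kinase genes. Clusters of 1 gene share its RNA, and the intervals take no account of that.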

How the data were processed

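RBFOX2 eiCLIP was carried out on primary mouse hepatocytes in 3 libraries. As the methods and the submitters' processing notes describe, the authors trimmed adaptors with cutadapt, aligned reads to GRCm38 with STAR 2.4.2a, kept unique alignments, removed PCR duplicates by random barcode, pooled the libraries and used Paraclu to call clusters. Ribosomal RNA was taken out, going by the name given to the list. The deposited values are whole numbers and were read as the count of pooled cDNA starts in each cluster.

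Clusters were placed on GENCODE M21 genes, exons and introns on their own strand, with 1-based coordinates. Exon and intron numbers refer to the protein-coding transcript with the longest coding sequence. Sequence was taken from the GENCODE M21 transcripts, laid on the genome through their exons; the 85 SR transcripts had 0 conflicting bases among 82600 covered more than once. Introns covered by no transcript had no sequence.

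The members, lists and rules were chosen with earlier results of these data known. Named were all 10 genes, the highest cluster of each, clusters in or within 300 nt of poison exons, clusters in the top 10% of counts, and the 3 genes of each comparison list with the highest summed count. The rule for stop-carrying exons was added after the data had been seen. Alternatives changed the count filter, the overlap rule, merging, the order of classes, the definitions of poison exon and retained intron, the motif, its window and the genes included. Python 3.11.15, numpy 2.4.6, scipy 1.17.1 and matplotlib 3.10.9 were used.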

Additional observations from a re-analysis of the deposited data

Results flagged for a closer look

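Clusters outside the gene spans were not part of the comparisons above. Within 5 kb past the annotated end of an SR protein gene, on its strand and in no annotated gene, there were 6 clusters. Srsf5 had clusters of 26, 19 and 11 counts at 838, 3397 and 4494 nt past its end. Srsf6 had clusters of 29 and 12 counts at 407 and 712 nt past its end. Srsf9, which had no cluster inside its span, had 1 of 11 counts at 759 nt past its end. They were singled out because the list holds signal there that the gene annotation does not assign, and whether they belong to longer transcripts of these genes was not tested.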

How the results depend on the processing

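No paired analysis was possible because the libraries were pooled into 1 list before clusters were called, and for the same reason no replicate could be left out. Of 240 values under alternatives, 193 stayed within 1.5 times the count or inside the interval of the share reported above. Some of these could not move: leaving out Srsf1 or Srsf9, which had no cluster, changes nothing, and merging keeps the summed count. The shares of all same-length windows were held against the interval of the cluster windows, which is another quantity. The tally is therefore not a measure of how stable the results are. The number of clusters was 69 at or above the median count, 26 in the top 10% of counts and 57 with clusters within 200 nt merged, and the summed count was 2268 without Srsf6. In the top 10% the shares were 23.1% in coding sequence, 7.69% in 3′ UTRs, 19.2% in other introns and 46.2% in retained introns (12 clusters), and 5 genes had a cluster. Weighted by count, 3′ UTRs had 7.51%, other introns 18.4% and retained introns 59.2%. The 394 counts in 3′ UTRs include the 105 of the cluster in the Srsf6 stop-carrying exon. Other introns had 47.5% without Srsf6 and 25.6% without Srsf11. Retained introns had 18 clusters at or above the median count, 8 (14.0%) after merging, none of them in Srsf6, and 42.1% when any part of a retained-intron exon counted. Beside poison exons there were 11 clusters at 3 exons, but 1 cluster at 1 exon at or above the median count, 0 at 0 exons in the top 10% and 4 clusters after merging, so that this result rests on small clusters. Inside poison exons there was 1 cluster in 1 exon by any overlap, 3 in 2 exons when any non-coding transcript counted, and 3 in 1 exon, with 19 beside, for stop-carrying exons, an alternative added after the data had been seen. GCATG windows made up 31.6% in the top 10%, 5.56% with 20 nt added and 32.8% with 100 nt added. Among all windows of like length, cluster windows included, the shares were 24.6%, 6.73% and 25.7%. The share was 8.82% for TGCATG and 7.35% for CATGC, the reverse complement of GCATG. Over all same-length windows, cluster windows included, TGCATG had 8.58% and CATGC 11.1%. The merged shares of the comparison lists were added after the data had been seen. Depth limits the rest: clusters under 10 counts are not in the list.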
